A study of Homo sapiens with 6 samples.

Results

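The genes described here encode the proteins of the cytosolic ribosome. They were chosen by name from the expression tables of 6 RNA sequencing libraries: RPL or RPS, then digits, then at most a single letter A, X or L, together with RPLP0, RPLP1, RPLP2 and RPSA. The pattern matched 83 of 55401 gene names. RPS10L was left out because RefSeq lists it as the pseudogene RPS10P5, which gave 82 members, 49 of the large subunit and 33 of the small subunit. The cells were of the human rhabdomyosarcoma line RMS13, a tumour of the skeletal muscle lineage, and the drug was MAL3-101, a small molecule that inhibits the chaperone HSP70. The groups were RMS13-R cells, a derivative with acquired resistance, treated with 10 μM MAL3-101; parental RMS13 cells treated with 10 μM MAL3-101; and parental RMS13 cells given the solvent DMSO. Every group was treated for 9 h and has 2 libraries, with the letters A and B. The titles of the DMSO libraries name the drug as well, and their group was taken from the description, which gives DMSO treatment only. Resistant cells given DMSO are not analysed here, so a difference of the resistant line and its response to the drug cannot be told apart. The labels do not say that A and B came from separate cultures, or how many resistant clones there were. The p-values below therefore measure the spread between these libraries, which may be technical. In such bulk libraries fewer cells of a kind and less RNA per cell cannot be told apart.

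Nearly every ribosomal protein is present in a single copy per ribosome, so these mRNAs are among the most abundant of a growing cell and their proteins are needed in balanced amounts. Most of them begin with a cytidine followed by an unbroken run of pyrimidines, the 5′ terminal oligopyrimidine (TOP) tract, through which mTOR and the RNA-binding protein LARP1 control their translation. Proteins left over from assembly are degraded, and some, above all RPL5 and RPL11 with the 5S ribosomal RNA, bind the ubiquitin ligase MDM2. HSP70 works beside the ribosome, where it binds chains as they emerge.

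The start sites of 13 members that carry the results below are shown to let their TOP tracts be compared. Each line gives 15 bases before and 15 bases from a start listed in RefSeq for GRCh38.p14, read 5′ to 3′ on the strand of the gene. Where several starts are listed, the one with the longest run of C and T is shown. Capitals mark the unbroken run of C and T that begins with a C at the start.
RPL13 at chr16:89560667-89560696 on the plus strand: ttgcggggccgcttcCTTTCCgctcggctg
RPL37A at chr2:216498829-216498858 on the plus strand: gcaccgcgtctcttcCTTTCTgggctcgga
RPL27A at chr11:8682777-8682806 on the plus strand: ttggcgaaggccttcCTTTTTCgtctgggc
RPLP1 at chr15:69452803-69452832 on the plus strand: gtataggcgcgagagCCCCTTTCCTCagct
RPS21 at chr20:62387088-62387117 on the plus strand: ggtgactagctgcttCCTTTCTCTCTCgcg
RPL31 at chr2:101002274-101002303 on the plus strand: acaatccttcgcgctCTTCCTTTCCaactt
RPS27 at chr1:153990747-153990776 on the plus strand: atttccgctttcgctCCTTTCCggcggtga
RPL14 at chr3:40457324-40457353 on the plus strand: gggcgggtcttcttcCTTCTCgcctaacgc
RPL29 at chr3:51995881-51995910 on the minus strand: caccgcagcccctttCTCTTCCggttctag
RPL41 at chr12:56116618-56116647 on the plus strand: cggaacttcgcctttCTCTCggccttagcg
RPL36A at chrX:101390996-101391025 on the plus strand: tttgcctcgcggtttCTTTCTTTCCgcgcc
RPS26 at chr12:56041903-56041932 on the plus strand: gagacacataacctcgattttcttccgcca
RPS27L at chr15:63157463-63157492 on the minus strand: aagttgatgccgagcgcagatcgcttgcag
The 7 genes listed above RPL14 were called higher in resistant than in drug-treated parental cells, and the 4 from RPL14 to RPL36A lower, by the test described below, which called 21.3% of all tested genes higher and 34.8% lower. The shown starts of both sets carry the run, between 5 and 12 bases long, but genes and starts were picked, so this is no result about called members. Of 17 tested members without such a run at any listed start, 7 were called higher, RPL17 and RPS29 among them. The 3 called lower were RPL6, RPL10A and RPL19. RPS26 and RPS27L have no capitals, since their listed start is no C within such a run. RefSeq promoter windows were matched for 64 of the 82 members. Among these, 46 (71.9%) began with a C in a run of at least 5 C or T at any of their listed starts, against 5.14% of 27305 genes. The letters CCGGAAG or CTTCCGG, the core that ETS factors such as GABPA bind, stood in 35.9% of the matched members' promoter windows and in 12.16% of all genes' windows. These letters hold a CG, and the members' windows had a median of 25 CG pairs against 16 over all genes. AAGATGG or CCATCTT, the core of YY1 sites, stood in 12.5% of the members' and 7.11% of all genes' windows, and TATAAA or TTTATA, the TATA box, in 9.4% of the members' and 13.99% of all genes' windows. These matches are of letters only.

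The deposited values are TPM, a transcript abundance scaled by length that sums to the same total in every library, so each level is a share of the library and the sequencing depth is unknown. Between 13918 and 14334 genes reached 1 TPM. Of 7 muscle lineage markers, 6 were present in every library, MYOD1 at 484 to 816 TPM, and MYF5 was listed at 0. In resistant against drug-treated parental cells PAX3, DES, MYOG and CDH15 were called higher, with log2 fold changes between 0.20 and 0.61, and CHRNA1 and MYOD1 lower, at -2.60 and -0.56. The part of these differences in the results below was not tested. Of 7 markers of other cell types in the files, 6 stayed at or under 0.43 TPM in every library. EPCAM, an epithelial marker, averaged 0.21 ± 0.028 TPM in resistant cells, 5.85 ± 0.21 TPM in drug-treated parental cells and 3.52 ± 0.035 TPM in DMSO parental cells (SD, n = 2 each), and its part in the results was not tested. The 2 DMSO libraries differed most within a group: 171 of 15148 tested genes were at least 2-fold apart, against 40 in resistant and 67 in drug-treated parental cells. Of the 82 members, 47 were higher in library A than in B among resistant, 59 among drug-treated parental and 60 among DMSO cells. The members' median log2 difference of A minus B was 0.007 in resistant, 0.018 in drug-treated parental and 0.092 in DMSO cells. The mitochondrial ribosomal RNAs, which share the total with all other transcripts, made up 0.784% and 0.767% of TPM in resistant cells, 1.92% and 1.97% in drug-treated parental cells, and 0.533% and 0.565% in DMSO cells.

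Ribosomal protein transcripts took a larger share of all TPM in resistant than in parental cells. Their summed level was 19.88% in both resistant libraries, 18.41% and 18.14% in drug-treated parental cells, and 18.32% and 17.26% in DMSO cells. Both resistant libraries lay above all 4 parental ones, and the drug-treated and DMSO parental libraries overlapped. Resistant cells averaged 19.88% ± 0.0052 and drug-treated parental cells 18.28% ± 0.185 (SD, n = 2 each), a ratio of 1.088, with an exact permutation p of 0.333 (two-sided), the smallest that 2 libraries against 2 allow. Large subunit members summed to 12.10% and 12.09% in resistant cells, 11.36% and 11.20% in drug-treated parental cells, and 11.24% and 10.69% in DMSO cells. For the small subunit the sums were 7.78% in both resistant libraries, 7.04% and 6.95% in drug-treated parental cells, and 7.07% and 6.56% in DMSO cells. The sum of the large over that of the small subunit was 1.556 and 1.554 in resistant cells, below 1.614 and 1.612 in drug-treated parental cells and below 1.589 and 1.629 in DMSO cells. With mitochondrial transcripts left out of every total, the counts of called members given below were 38 higher and 11 lower for resistant against drug-treated parental cells, and 15 higher and 12 lower for the drug in parental cells. Of all tested genes 22.1% were then higher and 34.1% lower in the first comparison, and 22.9% and 18.4% in the second.

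**Figure D1:**
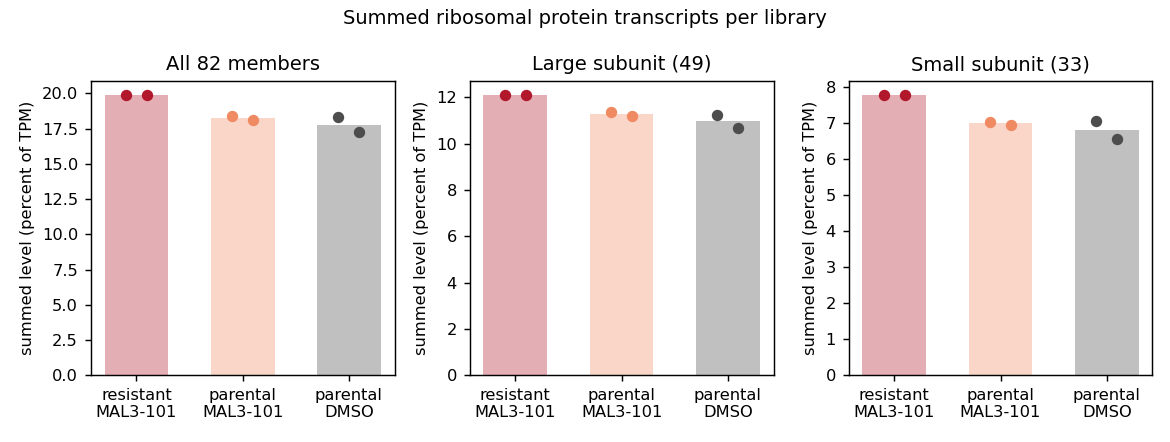
Summed TPM of all 82 members, the 49 large subunit and the 33 small subunit members, as a percentage of each library's total, with a point per library and a bar at the group mean. Both resistant libraries sit at 19.88% for all members, above the parental libraries, which range between 17.26% and 18.41%.

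Within the set the levels were uneven. Since TPM is scaled by transcript length, levels of different genes can be compared, unless their reads are shared with copies. Over the 6 libraries 71 members averaged 1000 TPM or more, and 56 were among the 100 genes with the highest mean. RPL39, a small protein of the exit tunnel, was highest, with 5512 and 5502 TPM in resistant cells, 6468 and 6265 TPM in drug-treated parental cells and 7239 and 6664 TPM in DMSO cells. RPS18 and RPL41, the smallest ribosomal protein, followed with means of 4948 and 4831 TPM. In resistant cells RPL37 and RPL13 were above RPL41, and in both parental groups RPL41 was above both. In all, 8 members averaged under 500 TPM. Reads of some members can be shared with near-identical copies. RPL21 averaged 164 TPM and its named pseudogene copies held 89.1% of their joint level, most of it in RPL21P75. RPL9 shared its level about evenly with its copies (49.9%), and copies of RPS2 held 11.6%. The levels and changes of RPL21, RPL9 and RPS2 are therefore uncertain. RPS26 and RPS28 averaged 39.8 and 40.2 TPM, far under most members, and the 18 named copies of RPS26 held 1.57% of their joint level. The sources used here do not say how reads of near-identical copies were divided, so the levels and changes of RPS26 and RPS28 may be uncertain too. The read-through gene RPL17-C18orf32 had 12.2 to 17.5 TPM and RPL36A-HNRNPH2 1.10 to 3.34 TPM, small beside RPL17 and RPL36A.

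In resistant cells, set against drug-treated parental cells, more ribosomal protein mRNAs were higher than lower, by small amounts. The test was limma on log2(TPM + 1), with a call at a Benjamini-Hochberg adjusted p under 0.05 over 15148 genes. It called 38 of the 80 tested members higher and 11 lower, and 31 missed the threshold. Among all tested genes 21.3% were called higher and 34.8% lower (56.1% in either direction), while the members' shares were 47.5% and 13.8%. The members' median log2 fold change was 0.14, and that of all tested genes -0.10. No member changed 2-fold, and their log2 fold changes ran between -0.61 for RPL36A and 0.52 for RPS27L. In the large subunit 23 of 47 tested members were higher and 10 lower, and in the small subunit 15 of 33 were higher and only RPSA was lower. In 44 members both resistant libraries were above both drug-treated parental libraries, and in 26 both were below. For all tested genes these shares were 34% and 49.4%. Scaling by the median ratio or by the upper quartile gave 42 higher and 6 lower members and moved the median of all genes to -0.0053 and 0.0068. Of all tested genes 27.9% and 28.6% were then higher, and 28.8% and 28% lower. Scaling each library to the members' own sum gave 29 higher and 28 lower, against 15.9% and 43% of all tested genes. This scaling holds the members' total equal in every library, so rises and falls among them must largely balance. Leaving out 1 library gave members' medians between 0.122 and 0.155, and medians of all tested genes between -0.105 and -0.090. Of the 49 calls 30 were kept without any 1 library.

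**Figure D2:**
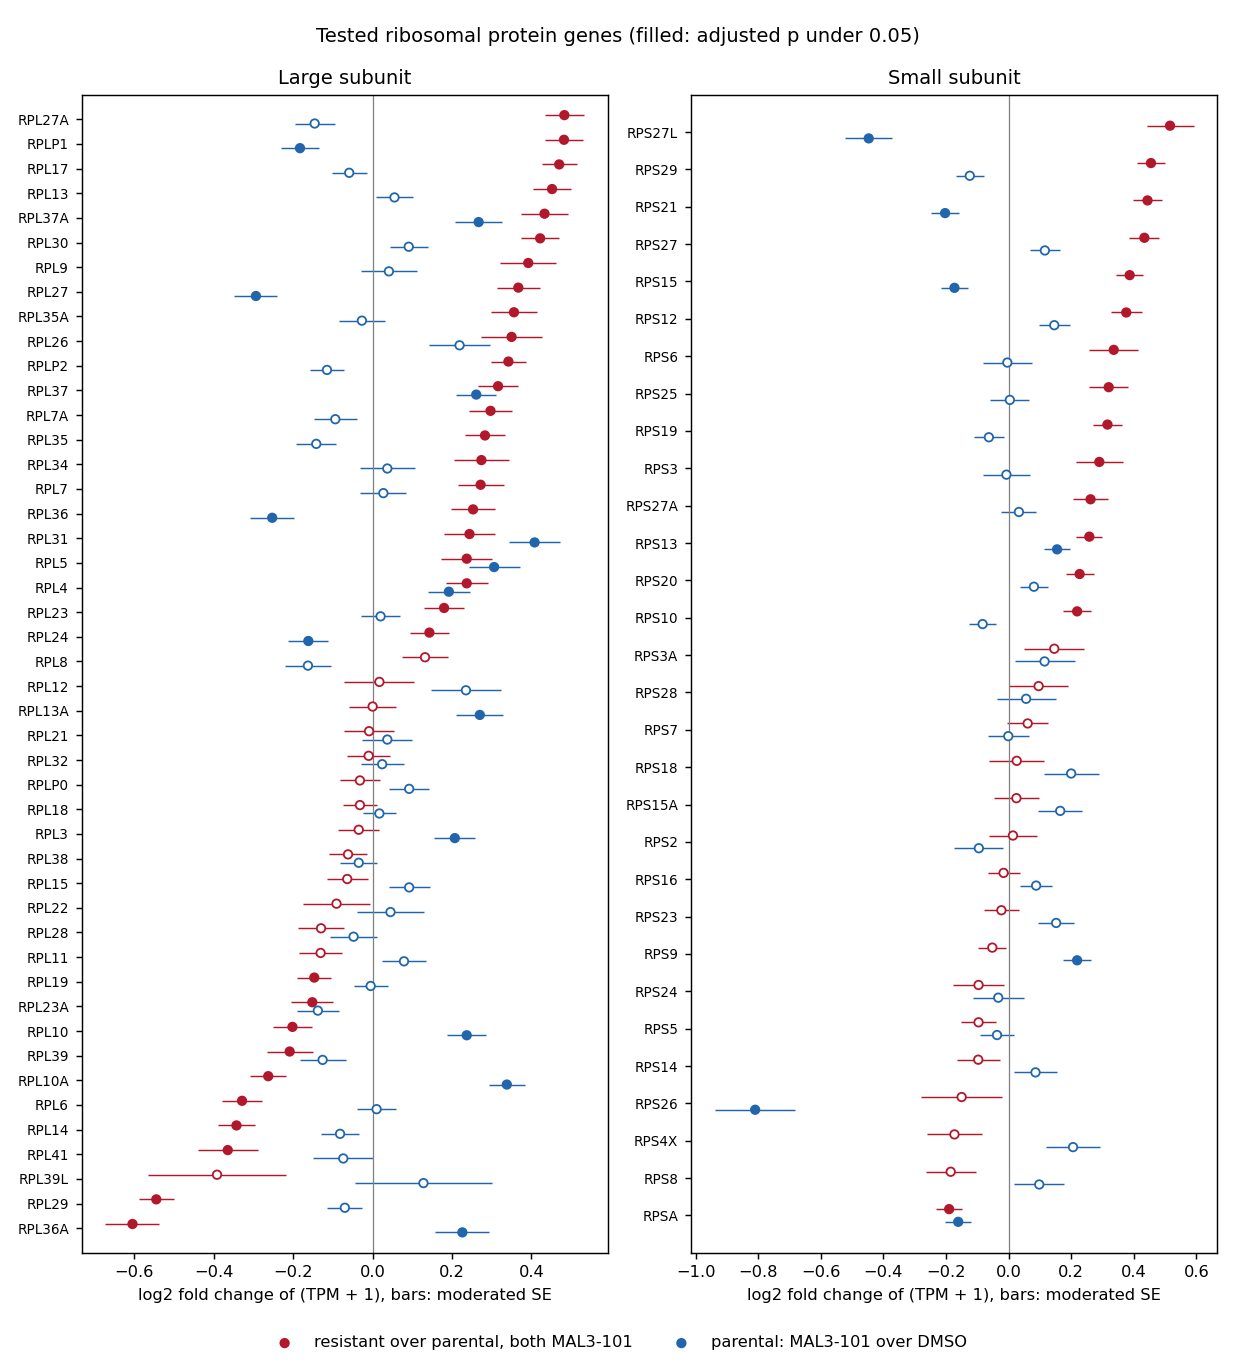
Log2 fold change of 76 of the 80 tested members on the log2(TPM + 1) scale, with the moderated standard error as a bar and filled points for an adjusted p under 0.05. Red points (resistant over parental cells, both given MAL3-101) run between -0.61 and 0.52, blue points (parental cells, MAL3-101 over DMSO) run between -0.81 and 0.41, and the medians over all 80 tested members were 0.14 and 0.022.

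The ribosomal stalk, which recruits the elongation factors, moved unevenly. RPLP1, one of its acidic proteins, had 4065 and 4185 TPM in resistant cells, 3007 and 2899 TPM in drug-treated parental cells and 3345 and 3361 TPM in DMSO cells. Both resistant libraries were above all others, and the drug-treated parental ones lowest. Its log2 fold change in resistant against drug-treated parental cells was 0.48 ± 0.048 (SE, limma adjusted p = 1.7e-04). RPLP2, its partner, had 1284 and 1347 TPM in resistant cells, 1037 and 1038 TPM in drug-treated parental cells and 1117 and 1131 TPM in DMSO cells, with the same order of groups and a log2 fold change of 0.34 ± 0.044 (limma adjusted p = 5.9e-04). RPLP0, the stalk base on which both sit, had 2511 and 2531 TPM in resistant cells, 2635 and 2521 TPM in drug-treated parental cells and 2347 and 2492 TPM in DMSO cells. Its groups overlapped between resistant and drug-treated parental cells, and the log2 fold change of -0.032 ± 0.051 did not pass the test (limma adjusted p = 0.622).

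Among the other large subunit members that rose was RPL13. It had 5354 and 5350.5 TPM in resistant cells, 3872 and 3952 TPM in drug-treated parental cells and 3821 and 3711 TPM in DMSO cells. The resistant libraries stood apart, the parental groups lay close together, and the log2 fold change was 0.45 ± 0.047 (limma adjusted p = 2.2e-04). RPL27A had 2219.6 and 2255 TPM in resistant cells and 1614 and 1587 TPM in drug-treated parental cells, a log2 fold change of 0.48 ± 0.05 (limma adjusted p = 2.2e-04). RPL17, which lines the exit tunnel, had 2599 and 2633 TPM in resistant cells and 1887 and 1889 TPM in drug-treated parental cells. Its resistant libraries were well clear of the drug-treated parental ones, with a log2 fold change of 0.47 ± 0.044 (limma adjusted p = 1.4e-04). RPL30 rose by 0.42 (limma adjusted p = 3.1e-04), with 2780.0 and 2857 TPM in resistant cells and 2116 and 2091 TPM in drug-treated parental cells. RPL37A, a zinc-binding protein, had 4212 and 4107 TPM in resistant cells, 3025 and 3136 TPM in drug-treated parental cells and 2682 and 2441 TPM in DMSO cells. It was the member with the largest rise over DMSO cells, and the 3 groups were ordered without overlap.

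Small subunit members gave rises of similar size. RPS21 had 4116 and 4131 TPM in resistant cells, 3052 and 3009.5 TPM in drug-treated parental cells and 3449 and 3526 TPM in DMSO cells. Resistant cells were highest and drug-treated parental cells lowest, with a log2 fold change of 0.44 ± 0.045 between these (limma adjusted p = 2.0e-04). RPS29, mutated in some families with the red cell aplasia Diamond-Blackfan anaemia, had 1774 and 1751 TPM in resistant cells and 1292 and 1279 TPM in drug-treated parental cells, a log2 fold change of 0.46 ± 0.044 (limma adjusted p = 1.6e-04). RPS19, the gene most often mutated in that disease, had 4199.8 and 4368 TPM in resistant cells, 3453 and 3428 TPM in drug-treated parental cells and 3586 and 3600.0 TPM in DMSO cells. It rose by 0.32 over drug-treated parental cells (limma adjusted p = 0.00113), and both resistant libraries were above all parental ones. RPS6, the substrate of the S6 kinases, had 3225 and 3225 TPM in resistant cells, 2531 and 2579 TPM in drug-treated parental cells and 2792 and 2353 TPM in DMSO cells, a log2 fold change of 0.34 ± 0.078 (limma adjusted p = 0.00879). RPS3, at the mRNA entry channel, gave 0.29 ± 0.076 with 3388 and 3327 TPM in resistant cells and 2774 and 2716 TPM in drug-treated parental cells (limma adjusted p = 0.0145). The calls of RPS6 and RPS3 were lost when any 1 of the 4 libraries compared was left out. RPS27A, made as a fusion with ubiquitin, rose by 0.26, with 3259 and 3198 TPM in resistant cells and 2707 and 2675 TPM in drug-treated parental cells (limma adjusted p = 0.00603), a call lost without parental drug library B or resistant library A. RPS14, a gene lost in a form of myelodysplastic syndrome, and RPS7 did not pass the test, with log2 fold changes of -0.097 ± 0.068 and 0.061 ± 0.065 (limma adjusted p = 0.259 and 0.451).

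The members that fell were nearly all of the large subunit. RPL36A had 2140.2 and 2129 TPM in resistant cells, 3303 and 3194 TPM in drug-treated parental cells and 2968 and 2598 TPM in DMSO cells. Resistant libraries were lowest and drug-treated parental ones highest, with no overlap between any groups. Its log2 fold change against drug-treated parental cells was -0.61 ± 0.068 (limma adjusted p = 3.0e-04). RPL29, also known as a heparin-binding protein, had 1338 and 1362 TPM in resistant cells, 1996 and 1945 TPM in drug-treated parental cells and 2043 and 2094 TPM in DMSO cells. The parental groups lay close together and the resistant libraries well below both, at a fold of 0.685 of drug-treated parental cells and a log2 fold change of -0.55 ± 0.044 (limma adjusted p = 7.0e-05). RPL41 had 3993 and 3955 TPM in resistant cells, 5148 and 5087 TPM in drug-treated parental cells and 4986 and 5818 TPM in DMSO cells. Resistant libraries were below all others, though DMSO libraries spread widely, and the log2 fold change was -0.37 ± 0.075 (limma adjusted p = 0.00494). RPL14 had 737 and 742 TPM in resistant cells, 929 and 947 TPM in drug-treated parental cells and 1026 and 961 TPM in DMSO cells, a log2 fold change of -0.34 ± 0.047 (limma adjusted p = 8.0e-04). RPL6 had 2002 and 2007 TPM in resistant cells and 2554 and 2482 TPM in drug-treated parental cells, a log2 fold change of -0.33 ± 0.05 (limma adjusted p = 0.00124). RPL10A, RPL39, RPL10, RPL23A and RPL19 fell by smaller amounts, with log2 fold changes of -0.26, -0.21, -0.20, -0.15 and -0.15. RPL10 joins the large subunit late in its maturation and RPL23A binds the signal recognition particle at the tunnel exit. The calls of RPL39, RPL10, RPL23A and RPL19 were lost when any 1 of the 4 libraries compared was left out. RPSA, the laminin receptor, was the sole small subunit member that fell. It had 1248 and 1254 TPM in resistant cells, 1419 and 1436 TPM in drug-treated parental cells and 1581 and 1611 TPM in DMSO cells, ordered without overlap, with a log2 fold change of -0.19 ± 0.042 against drug-treated parental cells (limma adjusted p = 0.00658). Its call was lost without parental drug library B or without either resistant library. RPL39, RPL10, RPL23A, RPL19 and RPSA did not pass under median-ratio or upper-quartile scaling.

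**Figure D3:**
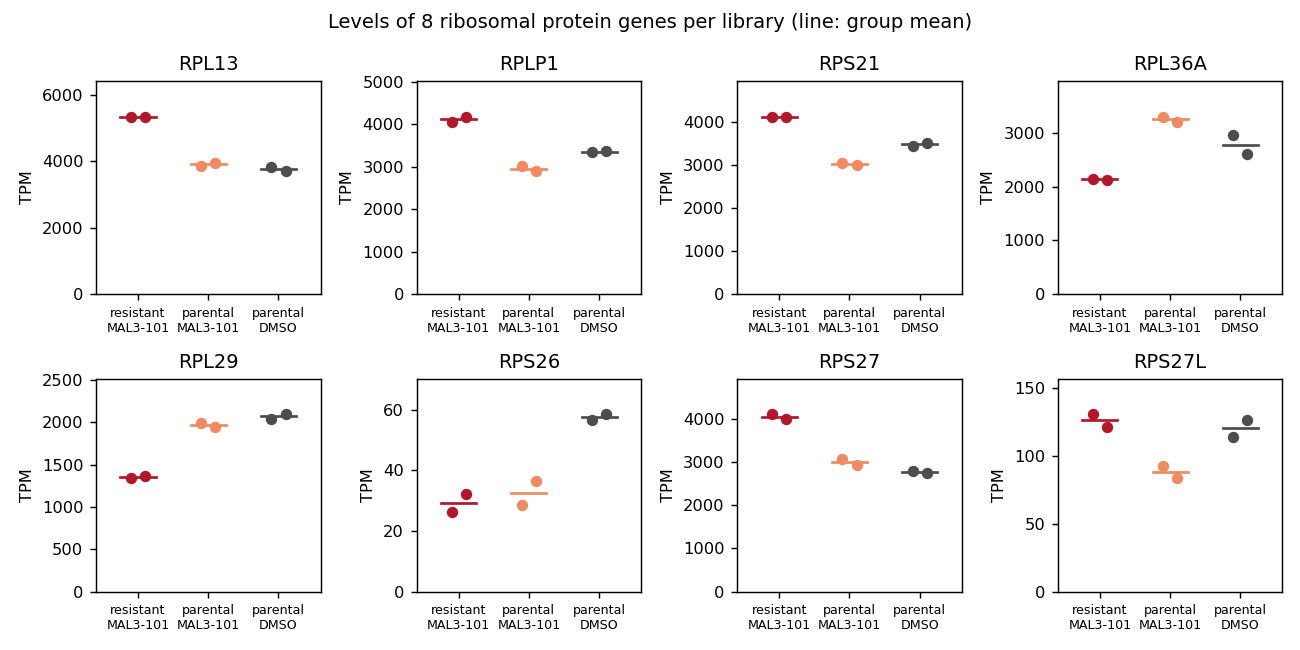
TPM of 8 members in each library, with a point per library and a line at the group mean, on axes that start at 0. RPL13, RPLP1, RPS21 and RPS27 were highest in resistant cells, RPL36A and RPL29 lowest there, RPS26 highest in DMSO cells (56.5 and 58.5 TPM), and RPS27L lowest in drug-treated parental cells (92.2 and 83.5 TPM).

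In parental cells MAL3-101 changed 22 of the 80 tested ribosomal protein mRNAs, in both directions. Of these 13 were called higher with the drug than with DMSO and 9 lower, against 22.6% higher and 18.2% lower (40.8% in either direction) among all tested genes. The other 58 missed the threshold. Both drug libraries were above both DMSO libraries in 28 members and below them in 23, against 37.5% and 32.3% of all tested genes. The members' median log2 fold change was 0.022 and that of all genes 0.024. The medians moved with the DMSO library left out. Without DMSO library A the members' median was 0.093 and that of all tested genes 0.055. Without DMSO library B these were -0.030 and -0.0077, so the members lay above all genes in the first case and below them in the second. Leaving out drug-treated parental library A gave 0.013 for members and 0.027 for all genes, and leaving out B 0.027 for each. Median-ratio scaling gave 12 higher and 14 lower, and upper-quartile scaling 10 and 19. Of all tested genes 21.1% were higher and 20.7% lower under the first, and 19.8% and 22.5% under the second. Of the 22 calls 4, those of RPL10A, RPL31, RPS26 and RPS27L, were kept without any 1 library.

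RPL31 rose most with the drug. It had 3269.6 and 3216 TPM in drug-treated and 2598 and 2297 TPM in DMSO parental cells, a log2 fold change of 0.41 ± 0.065 (limma adjusted p = 0.00289). Resistant cells were higher again, at 3882 and 3797 TPM, so that all 3 groups were apart. The call of RPL31 in resistant over drug-treated parental cells was lost when any 1 of the 4 libraries compared was left out. RPL10A had 1522 and 1502 TPM in drug-treated and 1226 and 1166 TPM in DMSO parental cells, a log2 fold change of 0.34 ± 0.045 (limma adjusted p = 0.00139), while resistant cells with 1264 and 1255 TPM were near the DMSO level. RPL5, RPL13A, RPL37A, RPL37, RPL10 and RPL36A rose by 0.31, 0.27, 0.27, 0.26, 0.24 and 0.23, and RPS9, RPL3, RPL4 and RPS13 by 0.22, 0.21, 0.19 and 0.16. RPL3 and RPL4 lie near the peptidyl transferase centre and along the tunnel, and RPL13A also acts in a complex that silences inflammatory mRNAs. RPS26, which contacts mRNA at the exit channel, had 26.3 and 32.1 TPM in resistant cells, 28.6 and 36.6 TPM in drug-treated parental cells and 56.5 and 58.5 TPM in DMSO cells. Both groups given the drug lay below both DMSO libraries and overlapped each other. Its log2 fold change of -0.81 ± 0.129 in drug-treated against DMSO parental cells was the largest in size of any member in this comparison (limma adjusted p = 0.00292), at a level far under that of most members. RPL27, RPL36, RPS21, RPLP1, RPS15, RPL24 and RPSA fell with the drug, by log2 fold changes of -0.29, -0.25, -0.20, -0.18, -0.17, -0.16 and -0.16.

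The 2 comparisons share the drug-treated parental libraries, so values of a member in them are set side by side only as a description. RPL31, RPL37, RPL37A, RPL4, RPL5 and RPS13 were called higher in both, so that resistant cells were highest and DMSO cells lowest. RPL37, for example, had 5663 and 5612 TPM in resistant cells, 4495 and 4559 TPM in drug-treated parental cells and 3888 and 3669.6 TPM in DMSO cells. RPL24, RPL27, RPL36, RPLP1, RPS15, RPS21 and RPS27L were lower in drug-treated than in DMSO parental cells and higher in resistant than in drug-treated parental cells. RPL10, RPL10A and RPL36A did the opposite, RPSA was called lower in both, and 26 members passed in neither. Of all members called in both comparisons, only RPS27L and RPL10A kept both calls without any 1 library. Counted over all 3 groups, both resistant libraries were above all 4 others in 37 members and below them in 12, drug-treated parental libraries were above in 9 and below in 17, and DMSO libraries were above in 6 and below in 23. Over all 15148 tested genes the resistant libraries were above all others in 21.7% and below in 32.5%, the drug-treated parental ones above in 26.9% and below in 16.9%, and the DMSO ones above in 19.6% and below in 16.7%, where the members' shares were 46.2% and 15%, 11.2% and 21.2%, and 7.5% and 28.7%.

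Against DMSO parental cells, resistant cells had 38 members called higher and 11 lower, where among all tested genes 20.9% were higher and 29.7% lower (50.6% in either direction). Both resistant libraries were above both DMSO libraries in 46 members and below them in 13, against 32.6% and 43.2% of all tested genes. The median was 0.17 for members and -0.06 for all genes. RPL37A, RPL31, RPL37, RPL26, RPS27, RPL5 and RPS12 rose most, with log2 fold changes of 0.70, 0.65, 0.58, 0.57, 0.55, 0.54 and 0.52. RPS26 and RPL29 fell most, with -0.96 and -0.62, and RPL41, RPL14, RPL36A and RPSA followed with -0.44, -0.43, -0.38 and -0.35 (limma adjusted p between 5.2e-05 for RPL29 and 0.00309 for RPL36A). RPS26 had an adjusted p of 8.4e-04 by limma. Scaling to the members' sum, which holds their total equal, gave 21 higher and 22 lower in this comparison, against 14.1% and 41.2% of all tested genes.

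Several members come as pairs of similar proteins. RPS27L, the copy of RPS27, was the called member with the largest rise in resistant over drug-treated parental cells. RPS27 had 4105 and 3999 TPM in resistant cells, 3062 and 2939 TPM in drug-treated parental cells and 2783 and 2752 TPM in DMSO cells, and rose by 0.43 in resistant over drug-treated parental cells (limma adjusted p = 2.8e-04). RPS27L had 131 and 121 TPM in resistant cells, 92.2 and 83.5 TPM in drug-treated parental cells and 114 and 126 TPM in DMSO cells. The resistant and DMSO libraries overlapped and the drug-treated parental ones were below both, with log2 fold changes of 0.52 ± 0.075 for resistant over drug-treated parental cells and -0.45 ± 0.075 for drug-treated over DMSO parental cells (limma adjusted p = 9.9e-04 and 0.00358). RPL39L, the testis-enriched copy of RPL39, had 7.35 and 5.71 TPM in resistant cells, 8.07 and 9.64 TPM in drug-treated parental cells and 9.24 and 6.89 TPM in DMSO cells, and passed no test. RPL3L, the copy of RPL3 made in muscle, was under the filter of a group mean of 1 TPM. It had 0.08 and 0.12 TPM in resistant cells, 0.51 and 0.34 TPM in drug-treated parental cells and 0.05 and 0.03 TPM in DMSO cells, while RPL3 had 2411 and 2429 TPM in resistant cells, 2508 and 2452 TPM in drug-treated parental cells and 2229 and 2071 TPM in DMSO cells. RPL10L, the retrocopy of RPL10 active in testis, was listed at 0 in all libraries given the drug and had 0.13 and 0.10 TPM in DMSO cells. RPL22, whose loss its paralog RPL22L1 is known to offset in mouse, passed no test, with -0.091 in resistant against drug-treated parental cells.

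The proteins that bind MDM2 when free did not all move alike. RPL5 had 2362 and 2314 TPM in resistant cells, 1974 and 1993 TPM in drug-treated parental cells and 1709 and 1506 TPM in DMSO cells, with log2 fold changes of 0.24 ± 0.064 for resistant against drug-treated parental cells and 0.31 ± 0.064 for drug-treated against DMSO parental cells (limma adjusted p = 0.0166 and 0.00891). RPL11 had 3194 and 3145 TPM in resistant cells, 3505 and 3437 TPM in drug-treated parental cells and 3427 and 3148 TPM in DMSO cells, and passed neither test. Its resistant libraries were below the drug-treated parental ones and overlapped the DMSO ones. RPL23 rose by 0.18 in resistant over drug-treated parental cells (limma adjusted p = 0.0176) and did not pass with the drug in parental cells (0.02). The RPL5 and RPL23 rises in resistant cells were lost when any 1 of the 4 libraries compared was left out. In the same libraries CDKN1A, which encodes the cyclin-dependent kinase inhibitor p21, had 75.3 and 78.5 TPM in resistant cells, 196 and 187 TPM in drug-treated parental cells and 68.2 and 83.1 TPM in DMSO cells. It was higher in drug-treated than in DMSO parental cells by 1.34 and in resistant against drug-treated parental cells changed by -1.31 on the log2 scale (limma adjusted p = 9.9e-05 and 3.7e-05). MDM2 and MDM4 were also called higher with the drug in parental cells, by 0.49 and 0.42, and lower in resistant against drug-treated parental cells (-0.61 and -0.71).

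A member's change in resistant cells went with that of the genes around it. For each of the 80 tested members the median log2 fold change of the 10 nearest tested genes on each side, other ribosomal protein genes left out, was taken from the gene order of RefSeq (GRCh38.p14). In resistant against drug-treated parental cells the members' own values and these medians had a Spearman rho of 0.64 over 80 members. In resistant cells against DMSO parental cells it was 0.73, and in drug-treated against DMSO parental cells 0.20. Library by library, resistant minus drug-treated parental gave 0.65 for the A libraries and 0.60 for the B libraries. Differences between the 2 libraries of a group gave 0.075 in resistant, 0.091 in drug-treated parental and 0.25 in DMSO cells. For 13021 other tested genes rho was 0.37 for resistant against drug-treated parental cells, 0.43 for resistant against DMSO cells and 0.18 for the drug in parental cells. For the 1392 of them with a mean of at least 100 TPM it was 0.43 for resistant against drug-treated parental cells, 0.54 for resistant against DMSO cells and 0.20 for the drug in parental cells. No p is given, since all points come from the same libraries and members on the same chromosome can share neighbours.

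**Figure D4:**
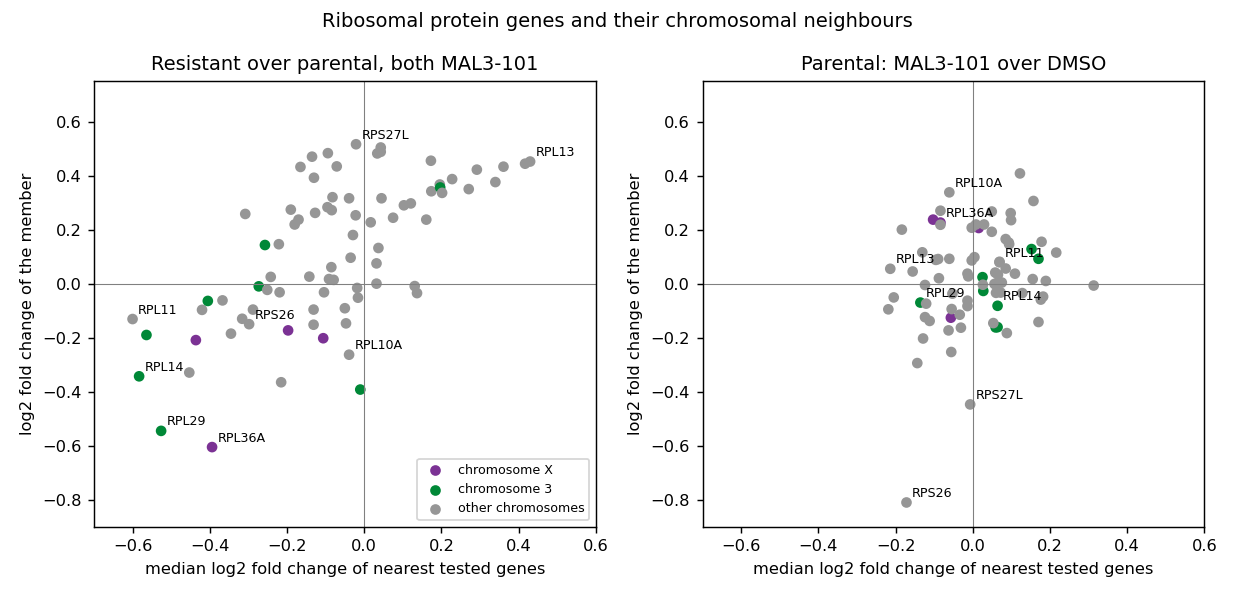
Each point is a tested member, with its own log2 fold change on the vertical axis and the median log2 fold change of up to 20 nearest tested genes on the horizontal axis. In resistant over drug-treated parental cells (left) low neighbourhoods go with low members, RPL29, RPL14 and RPL36A among them (rho 0.64), while in the drug response of parental cells (right) rho is 0.20.

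Of the 20 members in the neighbourhoods that were highest, with medians between 0.043 and 0.43, 18 were called higher in resistant than in drug-treated parental cells and none lower. Of the 20 in the lowest ones, with medians between -0.60 and -0.22, 2 were called higher and 6 lower, and of the 40 between, 18 were higher and 5 lower. Among all tested genes 21.3% were called higher and 34.8% lower in this comparison. The 6 of 20 called lower are no larger a share than that of all tested genes, a share not matched to neighbourhood. Around the 20 lowest members, between 6 (RPS3A) and 15 (RPL14) of the 20 neighbours were called lower, and 0 to 4 higher. Around the 20 highest, between 5 (RPS17L) and 13 (RPL13) of up to 20 neighbours were called higher, and 1 to 8 lower. RPL13 on chromosome 16 changed by 0.45 beside neighbours at 0.43, RPS21 on chromosome 20 by 0.44 beside 0.42, and RPL37A on chromosome 2 by 0.43 beside 0.36. On chromosome 3, RPL29, RPL14 and RPSA changed by -0.55, -0.34 and -0.19 beside neighbours at -0.53, -0.58 and -0.56. Of the other 5 tested members there, RPL35A and RPL24 were called higher, at 0.36 beside neighbours at 0.20 and 0.14 beside -0.26, and RPL15, RPL32 and RPL39L did not pass. The 721 other tested genes of chromosome 3 had a median of -0.34. All 4 tested members on chromosome X, RPS4X, RPL36A, RPL39 and RPL10, were below 0 in resistant against drug-treated parental cells, and all but RPS4X were called lower (-0.17 ± 0.087, limma adjusted p = 0.129), where 441 other tested genes of that chromosome had a median of -0.27. With the drug in parental cells RPL36A and RPL10 were called higher, in a comparison that shares the drug-treated parental libraries. In resistant against DMSO cells RPL36A and RPL39 were called lower (-0.379 and -0.335), and RPL10 and RPS4X did not pass (0.035 and 0.033). Other members departed from their surroundings. RPL11 changed by -0.13 beside neighbours at -0.60, RPS13 by 0.26 beside -0.31, and RPL10A by -0.26 beside -0.039. RPS27L, with a change of 0.52, had neighbours at -0.021. Transcript length and GC content had Spearman rho values of -0.28 and -0.073 with the members' log2 fold changes in this comparison, and of -0.05 and 0.081 over all tested genes with a length on record. Of the 46 members whose listed start lies in a TOP-like run, 23 rose, 7 fell and 16 missed the threshold here, with a median log2 fold change of 0.14. Among 17 tested members without it, 7 rose and 3 fell, with a median of 0.061. Both counts stand beside the 21.3% higher and 34.8% lower of all tested genes.

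Genes that work with the members were looked at in the same way. Of all tested genes 21.3% were higher and 34.8% lower in resistant against drug-treated parental cells. With the drug in parental cells the shares were 22.6% and 18.2%. Ribosomal proteins outside the naming pattern were 3 higher (FAU among them) and 3 lower (GNB2L1, RPL26L1 and RPL22L1) of 8 tested in resistant against drug-treated parental cells. GNB2L1, which encodes RACK1, the scaffold on the head of the small subunit, had 1766 and 1773 TPM in resistant cells, 2867 and 2831 TPM in drug-treated parental cells and 2436 and 2361 TPM in DMSO cells. Its resistant libraries were below all others, with a log2 fold change of -0.69 ± 0.044 (limma adjusted p = 2.9e-05), larger in size than that of any member. FAU, whose product is made as a fusion with a ubiquitin-like protein, rose by 0.29. Of 16 other genes with TOP mRNAs, 5 were higher and 5 lower, the translation elongation factor gene EEF1A1 by 0.23 and EIF3F by 0.35 among the first, NPM1 by -0.72 and IMPDH2 by -0.82 among the second. EEF2 fell by 0.19 in resistant against drug-treated parental cells and rose by 0.43 with the drug in parental cells. TPT1 passed neither test. The 76 mitochondrial ribosomal protein genes, whose products make a separate ribosome, were 24 higher and 19 lower in resistant against drug-treated parental cells, and 14 higher and 24 lower with the drug in parental cells. MRPL18 had 91.1 and 89.8 TPM in resistant cells, 190.5 and 173 TPM in drug-treated parental cells and 94.4 and 87.8 TPM in DMSO cells, with a log2 fold change of 0.99 with the drug in parental cells, larger in size than that of any tested cytosolic member. GNB2L1, NPM1 and IMPDH2 had neighbour medians of -0.38, -0.49 and -0.83 in this comparison, and FAU 0.072. EEF1A1, which was higher, had neighbours at -0.18, and PDCD2, described below, at 0.23.

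Among 11 regulators of ribosomal protein synthesis and translation, 7 were lower and 2 higher in resistant than in drug-treated parental cells, and 5 were higher and 2 lower with the drug than with DMSO in parental cells. MYC, a transcription factor of ribosomal protein genes, had 36.1 and 36.6 TPM in resistant cells, 62.6 and 62.8 TPM in drug-treated parental cells and 31.3 and 40.0 TPM in DMSO cells. EIF4EBP1, a repressor of translation under mTOR, had 75.8 and 77.2 TPM in resistant cells, 116 and 127 TPM in drug-treated parental cells and 55.3 and 48.1 TPM in DMSO cells. Both were highest in drug-treated parental cells, with log2 fold changes over DMSO of 0.81 and 1.22 (limma adjusted p = 0.0013 and 7.4e-05). RPS6KB1, which encodes the kinase of RPS6, changed by -0.83 in resistant against drug-treated parental cells (limma adjusted p = 1.8e-04). LARP1, the TOP-binding repressor, fell by 0.25 with the drug in parental cells and did not pass in resistant against drug-treated parental cells. Of 14 chaperones and importers of ribosomal proteins 3 were higher and 6 lower in resistant than in drug-treated parental cells. PDCD2, a dedicated chaperone of RPS2, had 151 and 146 TPM in resistant cells, 67.6 and 65.6 TPM in drug-treated parental cells and 73.5 and 67.5 TPM in DMSO cells. It was over 2-fold higher in both resistant libraries (log2 fold change 1.15 ± 0.058, limma adjusted p = 1.2e-05), while RPS2 itself, at 3464 and 3592 TPM in resistant cells and 3537 and 3451 TPM in drug-treated parental cells, did not pass the test. The change of RPS2 is uncertain, since its named copies had 565 and 581 TPM in resistant and 406 and 392 TPM in drug-treated parental cells. PDCD2L, the paralog of PDCD2, changed by -0.79, and TSR2, the escort of RPS26, by -0.65.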

How the data were processed

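Total RNA of RMS13 and RMS13-R cells was sequenced in paired ends from libraries made with a TruSeq RNA kit, per the labels' protocols. The authors deposited 1 table of gene-level TPM per library. RSEM, DESeq and the build hg19 are named in the submitters' processing notes, with no role given, and neither the gene annotation nor the use of strand is given in the sources used here. From the deposited TPM, log2(TPM + 1) was fitted in limma 3.58.1 (R 4.3.3) with a mean-variance trend over all 6 libraries in 3 groups, for 15148 genes with a mean of at least 1 TPM in at least 1 group. Two-sided p-values were adjusted by Benjamini-Hochberg over these genes and called under 0.05. The fit was tested on simulated data. Depth is unknown, so no counting interval is given, and the number of libraries limits the precision. Fold changes on this scale understate changes of low genes. Names, gene order and start sequences came from RefSeq (GRCh38.p14), where all 82 members were found, and lengths from GENCODE release 29. Values are named for members with the largest called rises and falls in each comparison, for stalk, checkpoint and paralog members, and for up to 4 called genes of each other list; some genes that this rule names are not reported here. The members and lists were chosen with earlier results of these data known. In all, 20 other settings were tried.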

Additional observations from a re-analysis of the deposited data

How the results depend on the processing

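Across 20 other settings, 2457 values of 123 log2 fold changes of members gave 2142 on the same side of the threshold, 252 that no longer passed, 59 that newly passed and 4 that passed with the opposite sign. Of the 2142, 65 had the opposite sign and passed under neither setting. The 4 were RPS3, RPS6 and RPS7 for the drug in parental cells, at 0.11, 0.12 and 0.092 without DMSO library A and at -0.12, -0.13 and -0.095 without B, and RPS4X for resistant against DMSO cells, at 0.18 without DMSO library A and -0.11 without B. For resistant against drug-treated parental cells, 38 members were higher and 11 lower. A test against a fold of 1.2 gave 13 and 2. The lower count was 21 with only the libraries compared, 6 under median-ratio or upper-quartile scaling, and 28 under scaling to the members' sum, which holds their total equal. Of all tested genes 41.5% were lower with only the libraries compared, 28.8% and 28% under the first 2 scalings and 43% under the last. The fold test called 9.92% of all tested genes higher and 19.8% lower. For resistant against DMSO cells (38 and 11), the fold test gave 13 and 3, scaling to the members' sum 21 and 22, and leaving out 1 library 25 to 49 and 8 to 17. For the drug in parental cells (13 and 9), no filter gave 7 and 4, only the libraries compared 8 and 5, no mean-variance trend 8 and 4, the fold test 0 and 1, and leaving out 1 library 2 to 40 and 3 to 22. Its lower count was 14, 19 and 14 under median-ratio, upper-quartile and members' sum scaling. The shares of all tested genes moved with the setting as well. For the drug they were 8.98% higher and 6.7% lower with no filter, and 18.6% and 14.4% with only the libraries compared. No mean-variance trend gave 20.9% and 15.9%, and the fold test 8.36% and 4.34%. For resistant against DMSO cells the fold test gave 9.42% and 14.8%. Deviations of same-lettered libraries correlated at 0.026, -0.02 and -0.021 over all tested genes. Values near 0 cannot tell whether the letters pair libraries, and the labels do not say. With the replicate letter as a block the counts were 37 and 10, 39 and 11, and 14 and 9. Of all tested genes 21%, 20.4% and 21.8% were then higher, and 34.4%, 29% and 17.4% lower. The cause of these shifts was not tested. With 5 or 20 neighbours on each side, chosen after seeing the data, rho was 0.57 or 0.66 for resistant against drug-treated parental cells, 0.67 or 0.71 against DMSO cells and 0.099 or 0.29 for the drug in parental cells. With 2 libraries a group and depth unknown, a change of a member not past the test cannot be taken as absent.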
